A study of Mus musculus with 9 samples.

Results

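The Schlafen genes were followed here in developing T cells of the mouse thymus. The 7 members were Slfn1, Slfn2, Slfn3, Slfn4, Slfn5, Slfn8 and Slfn9, chosen by name from the 20258 gene symbols of the array. They were read by 9 of the 55537 probes kept, 2 each for Slfn8 and Slfn9 and 1 for each of the others. Another 2 Schlafen genes with a named probe, Slfn14 and Slfnl1, were not well above background on any array.

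Thymocytes of C57BL/6 mice were sorted by their surface CD4, CD8 and TCRβ, and the RNA of each sort was measured on 1 one-colour array, 9 arrays in all. Conditional knockout (CKO) mice were Brd1flox/flox and control mice Brd1+/+, and both carried Tie2-Cre, a recombinase driven by a promoter of endothelial and blood-forming cells, so that the deletion is not restricted to T cells. CD4 and CD8 double positive (DP), CD4 single positive (CD4SP) and CD8 single positive (CD8SP) cells came from CKO and control mice of 8 weeks. CD8SP cells of CKO and control mice that also carried OT-l, a transgenic T cell receptor spelled OT-I below, came from mice of 14 weeks. CD4SP cells without surface TCRβ came from CKO mice of 8 weeks, with no control array. The labels do not say how many mice gave each sample, and no group was repeated. CKO and control below name the arrays so labelled.

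Schlafen proteins are a family of mammals whose genes lie side by side in the genome, and they are named after the German word for sleeping because Slfn1 was found as a gene that slows the growth of T cells. Slfn2 is required for mouse T cells to stay quiescent, as known from the elektra mutation, which leaves T cells semi-activated and short-lived. The longer members Slfn5, Slfn8 and Slfn9 carry a helicase-like part that the short members Slfn1 and Slfn2 lack, and several members are induced by interferon. In the thymus, DP cells are immature, and they become CD4SP or CD8SP cells when their T cell receptor is positively selected. Brd1 is a subunit of histone acetyltransferase complexes that acetylate histone H3.

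In the RefSeq annotation of GRCm38.p6 the members lie on chromosome 11 in the order Slfn5, Slfn9, Slfn8, Slfn2, Slfn1, Slfn4 and Slfn3, with Slfn10-ps, for which no probe was named here, between Slfn8 and Slfn2. Slfn8 and Slfn9 are on the minus strand and the others on the plus strand. The 250 bases before the annotated start of 5 members, from RefSeq with the build GRCm38.p6, are printed 5′ to 3′: Slfn1 and Slfn8 had called differences, Slfn5, Slfn8 and Slfn9 hold a response element core, and Slfn2 is the member known for quiescence. Capitals mark the core of the interferon-stimulated response element, which is GAAA, any 2 bases and GAAA, or its reverse complement.
Slfn1, chr11:83116570-83116819, plus strand: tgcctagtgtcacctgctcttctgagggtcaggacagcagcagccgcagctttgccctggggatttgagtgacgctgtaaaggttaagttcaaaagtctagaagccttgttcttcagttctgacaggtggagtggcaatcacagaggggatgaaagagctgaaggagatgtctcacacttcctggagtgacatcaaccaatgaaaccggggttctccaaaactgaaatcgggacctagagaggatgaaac
Slfn2, chr11:83064862-83065111, plus strand: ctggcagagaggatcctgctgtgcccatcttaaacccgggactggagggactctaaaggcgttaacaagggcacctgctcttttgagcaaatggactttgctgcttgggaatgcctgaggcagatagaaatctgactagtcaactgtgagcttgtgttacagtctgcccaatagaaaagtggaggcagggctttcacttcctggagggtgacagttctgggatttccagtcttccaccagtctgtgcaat
Slfn5, chr11:82951852-82952101, plus strand: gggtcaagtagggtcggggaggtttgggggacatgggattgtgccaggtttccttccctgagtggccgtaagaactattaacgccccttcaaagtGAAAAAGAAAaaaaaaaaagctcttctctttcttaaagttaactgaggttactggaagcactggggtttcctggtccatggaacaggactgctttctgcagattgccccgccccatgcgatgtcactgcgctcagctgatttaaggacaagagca
Slfn8, chr11:83020811-83021060, minus strand: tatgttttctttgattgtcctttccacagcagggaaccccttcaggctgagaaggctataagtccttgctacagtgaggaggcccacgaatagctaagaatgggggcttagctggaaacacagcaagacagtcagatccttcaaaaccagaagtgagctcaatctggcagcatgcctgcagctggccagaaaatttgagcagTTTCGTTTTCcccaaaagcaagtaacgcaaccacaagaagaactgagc
Slfn9, chr11:82991831-82992080, minus strand: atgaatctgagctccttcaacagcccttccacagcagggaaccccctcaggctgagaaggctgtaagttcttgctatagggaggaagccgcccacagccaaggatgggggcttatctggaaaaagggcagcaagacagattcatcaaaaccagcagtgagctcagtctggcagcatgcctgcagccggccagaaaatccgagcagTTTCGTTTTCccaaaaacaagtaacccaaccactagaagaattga

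All 7 members had an annotated start, and Slfn8 had 2, so 8 windows of 300 bases (250 before and 50 after the start) were searched on both strands. The response element core was in the windows of 3 genes, Slfn5, Slfn8 and Slfn9, against 3.44% of all 32851 windows of that length. Its first base was at −45 from the start in Slfn9, at −48 from the start of the Slfn8 stretch printed and −136 from the other Slfn8 start, and at −155 in Slfn5, where a run of A follows. Slfn8 and Slfn9 had alike upstream stretches, with 80.0% identity over the alignment of the 250 bases, while the next most alike pair, Slfn2 and Slfn8, had 49.6%. The interferon-gamma activation site core, TTC, any 3 bases and GAA (8.3% of windows), the forkhead core TGTTTAC (3.65%) and the Klf core CACACCC (7.95%) were in no window of a member. A match of letters describes the window only.

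Levels are log2 signals minus the log2 75th percentile of their own array, so they compare arrays for 1 probe and not genes with each other. A gene counted as detected where a probe of it was well above background by the scanner's own mark. Between 39.1% and 45.9% of the probes were well above background on an array, and no spot was saturated. Cd3e, a chain of the T cell receptor complex, was high on all arrays (7.93 to 8.79). Cd4 was 6.19 to 6.54 on the DP and CD4SP arrays and 3.14 to 3.50 on the CD8SP arrays, and Cd8a was 4.60 to 5.46 on the DP and CD8SP arrays and −2.11 to −0.32 on the 3 CD4SP arrays. The 1 named Brd1 probe read higher on each CKO array than on its control, at −0.33 in CKO and −0.79 in control DP cells, −0.98 and −1.09 in CD4SP cells, −0.73 and −1.37 in CD8SP cells, and −0.73 and −1.34 in OT-I CD8SP cells. The position of that probe against the floxed segment is not given in the sources used here, so it does not check the genotype labels. The arrays lay on 2 slides: 6 on slide 1, and the CD8SP CKO array with both OT-I arrays on slide 2, so the CD8SP pair crosses slides.

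Slfn1, the founding member and one of the short ones, was well above background only in the single positive cells with TCRβ. Its level was 2.22 in CKO and 1.70 in control CD4SP cells, 1.61 in CKO and 0.16 in control CD8SP cells, and 1.15 in CKO and −2.40 in control OT-I CD8SP cells. It was −3.72 in CKO and −5.35 in control DP cells and −4.65 in TCRβ-negative CD4SP cells of the CKO, and it was not well above background on any of these 3 arrays. The lowest single positive array with TCRβ was thus at −2.40 and the highest of the DP and TCRβ-negative arrays at −3.72. How many of all genes separate these arrays in the same way was not counted. Fewer cells of a type and less RNA per cell cannot be told apart in such sorted bulk samples.

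Slfn2, which keeps T cells quiescent, was detected on all 9 arrays. Its level was 5.71 in CKO and 5.93 in control CD4SP cells, 5.35 in CKO and 4.49 in control CD8SP cells, and 5.54 in CKO and 3.48 in control OT-I CD8SP cells. It was 4.46 in CKO and 4.19 in control DP cells, and 3.90 in TCRβ-negative CD4SP cells of the CKO. The lowest array was the OT-I control, below both DP arrays.

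Slfn3, a longer relative of Slfn1 and Slfn2, was detected on all 9 arrays. Its level was 0.08 in CKO and 1.15 in control CD8SP cells, and −0.64 in CKO and 1.20 in control OT-I CD8SP cells. In CD4SP cells it was 0.12 in CKO and −0.73 in control cells, in DP cells −0.26 in CKO and −0.24 in control cells, and in TCRβ-negative CD4SP cells of the CKO 0.04. The control CD8SP arrays, with and without OT-I, were the highest arrays. Slfn4, known in mice as a gene of myeloid cells and macrophages, was not well above background on any array (−5.44 to −4.55) and was not tested.

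Slfn5, a long member, was detected on 4 arrays. These were the CKO and control CD4SP arrays (−1.36 and −1.30), the CKO CD8SP array (−1.88) and the CKO OT-I CD8SP array (−1.17). The control CD8SP array (−4.54), the control OT-I CD8SP array (−4.95), the TCRβ-negative array (−4.75) and the CKO and control DP arrays (−2.87 and −3.91) were not well above background. In CD8SP cells it was therefore detected in the CKO and not in the control.

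Slfn8, a long member, had a probe (A_55_P2117656) that was the brighter of its 2 and stood for the gene. Its level was 3.53 in CKO and 1.90 in control CD4SP cells, 3.43 in CKO and 1.00 in control CD8SP cells, and 2.33 in CKO and 0.74 in control OT-I CD8SP cells. It was 1.20 in CKO and −0.38 in control DP cells, and 1.61 in TCRβ-negative CD4SP cells of the CKO. The CKO array was the higher in each of the 4 populations.

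The second Slfn8 probe (A_66_P105585), designed on another RefSeq transcript of the gene, gave another picture. It read −2.22 in CKO and −2.09 in control DP cells and 0.01 in CKO and 0.02 in control CD4SP cells, so that the genotypes lay within 0.14 of each other there. In CD8SP cells it read 0.47 in CKO and −0.68 in control cells, and in OT-I CD8SP cells 0.46 in CKO and −1.99 in control cells. The probes shared the direction of CD8SP and OT-I CD8SP cells and disagreed on DP and CD4SP cells.

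Slfn9, whose upstream stretch resembles that of Slfn8, was detected on all 9 arrays. By its brighter probe (A_55_P2110537) it was 0.03 in CKO and 1.09 in control DP cells, 0.82 in CKO and −0.25 in control CD4SP cells, 0.49 in CKO and −0.30 in control CD8SP cells, and 0.93 in CKO and −0.45 in control OT-I CD8SP cells. It was 0.86 in TCRβ-negative CD4SP cells of the CKO. The DP pair ran against the other 3 pairs. The second probe (A_55_P2117649) had the same 4 directions with smaller CKO minus control differences, −0.67 in DP, 0.31 in CD4SP, 0.27 in CD8SP and 0.54 in OT-I CD8SP cells. Cross-hybridisation between probes of these related genes was not tested.

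**Figure D1:**
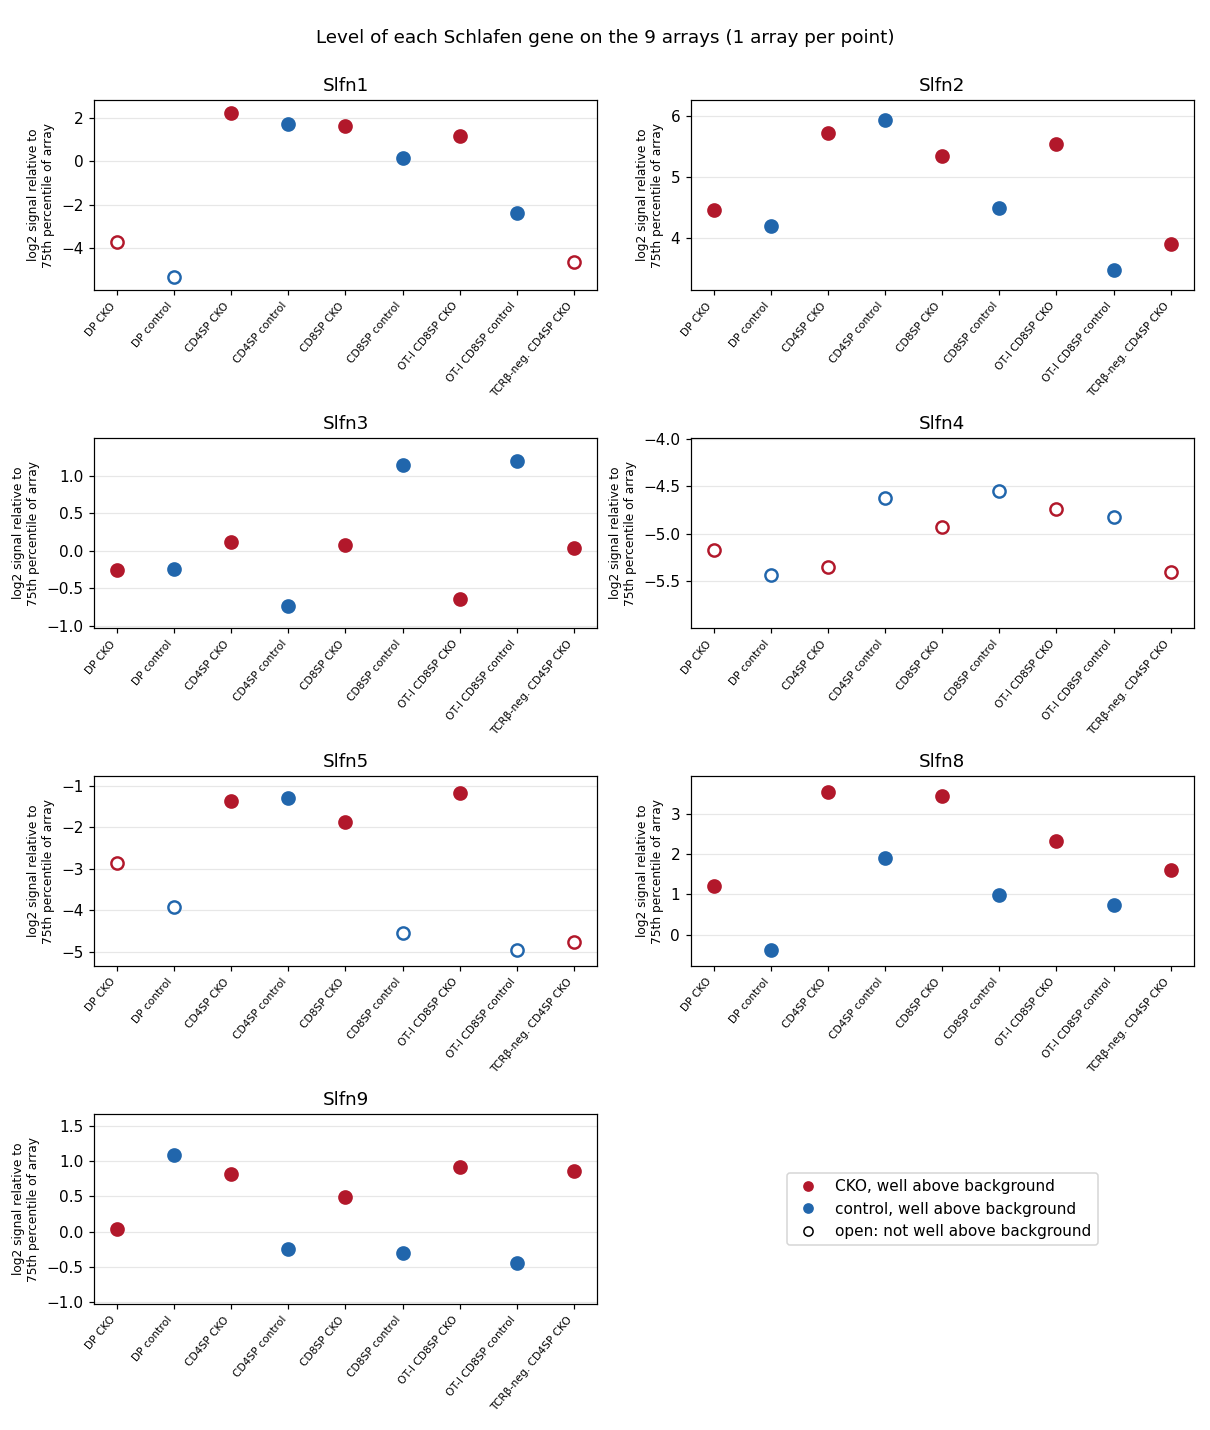
Level of each member on each array, as log2 signal relative to the 75th percentile of the array (vertical axis, its own scale for each gene), 1 point per array; red is CKO, blue is control, and open points were not well above background. Slfn1 lies between −2.40 and 2.22 in the single positive cells with TCRβ and is open in DP and TCRβ-negative cells, while Slfn4 is open throughout.

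**Figure D2:**
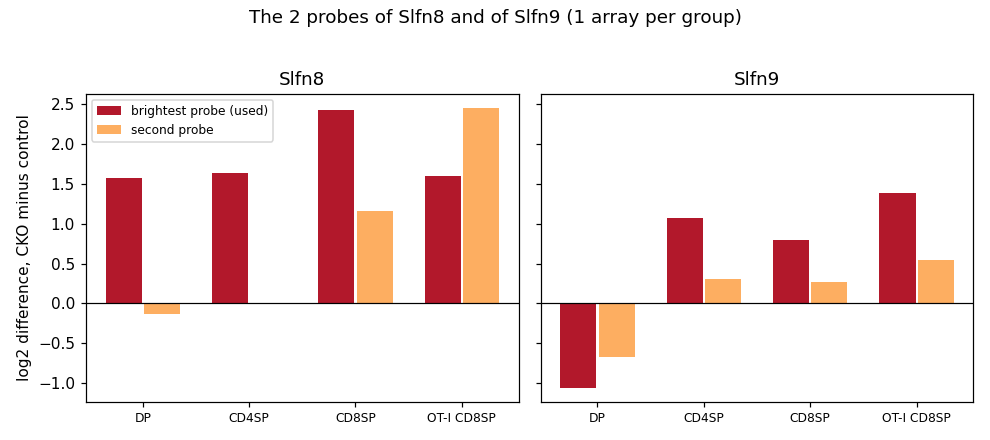
CKO minus control difference in log2 signal (vertical axis) for the 2 probes of Slfn8 (left) and of Slfn9 (right) in 4 populations, 1 array per group. The Slfn8 probes differ in DP cells (1.57 and −0.14) and CD4SP cells (1.64 and −0.01), and the Slfn9 probes share their directions.

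The first comparison was that of single positive with DP cells, which spans positive selection. An additive limma fit of population and genotype over the 9 arrays tested 20301 genes, 6 members among them, and a call was a Benjamini-Hochberg adjusted p below 0.05 over all genes. With 1 array per group, the error came from how unequal CKO minus control was across the 4 paired populations (3 residual degrees of freedom), and the spread between mice is not in it. In CD4SP minus DP, 2 of 6 members were called, both higher, against 3.09% of all genes called. Slfn1 was higher by 6.50 log2 units (SE 0.68, adjusted p = 0.0164), or 54.3-fold when DP cells are set at the detection bound. That bound is the lowest level of any probe well above background on the array, or the gene's own level if higher. Some undetected genes lay above that lowest level (Slfn5 at −2.87 in CKO DP cells, against −3.61). A fold by the bound is therefore not a strict lower limit. By normexp, which compresses values near background, its difference was 2.83 (adjusted p = 0.00746). Slfn8 was 4.94-fold higher (log2 difference 2.30, SE 0.32, adjusted p = 0.0262). Slfn2 differed by 1.49 (SE 0.55, adjusted p = 0.238) and Slfn5 by 2.06 (SE 0.89, adjusted p = 0.308), while Slfn3 (−0.06, SE 0.64) and Slfn9 (−0.28, SE 0.60) had differences within their SE.

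In CD8SP minus DP, 2 of 6 members were called, both higher, against 3.48% of all genes. Slfn1 was higher by 5.43 (SE 0.68, adjusted p = 0.0196), or 25.9-fold with DP cells set at the detection bound. Its difference was 2.07 by normexp. With slide as a further term it was 5.65 with an adjusted p of 0.116, a setting that called 0 of 20301 genes in this contrast. Slfn8 was higher by 1.80 (SE 0.32, adjusted p = 0.0458), a call that rests on how probes without a gene symbol are joined into genes, which was set after a first fit had been seen, and in that first fit the adjusted p was 0.052. That Slfn8 call was kept in 4 of 13 alternatives, and the adjusted p was 0.292 with slide as a further term. The second Slfn8 probe gave like sizes without a call, 2.17 in CD4SP minus DP (SE 0.66, adjusted p = 0.176 over all probes) and 2.05 in CD8SP minus DP (SE 0.66, adjusted p = 0.156). Slfn2 differed by 0.59 (SE 0.55), Slfn3 by 0.86 (SE 0.64), Slfn5 by 0.18 (SE 0.89) and Slfn9 by −0.47 (SE 0.60), none of them called.

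The median difference of the 6 members was 1.78 in CD4SP minus DP, against 0.00 over all genes tested, and 0.73 in CD8SP minus DP, against 0.03. These medians are over members that passed the detection filter and are a description. Between CD8SP and CD4SP cells, limma called 0 of 6 members, against 0.389% of all genes, and 0 members at an unadjusted p below 0.05, against 13.3% of all genes. Slfn1 was −1.07 (SE 0.68), Slfn2 −0.90 (SE 0.55) and Slfn5 −1.88 (SE 0.89) in CD8SP minus CD4SP, with Slfn5 detected on 1 of the 2 CD8SP arrays. Slfn8 was −0.50 (SE 0.32) and Slfn9 −0.19 (SE 0.60), and Slfn3 went the other way, at 0.92 (SE 0.64).

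TCRβ-negative CD4SP cells were set against DP and CD4SP cells. They were measured in the CKO only, so the fit assumes for them the genotype difference seen elsewhere, and the difference of CKO arrays is given beside it. Against CD4SP cells, 1 of 6 members was called, against 1.4% of all genes. Slfn1 had −7.50 in the fit (SE 0.87, adjusted p = 0.0303), with a log2 difference of −6.87 between the CKO arrays. With the TCRβ-negative array set at the detection bound, it was 73.1-fold lower between those arrays. That adjusted p lay between 0.0519 and 0.0915 in 5 of 14 alternatives, and the difference was −3.45 by normexp. Slfn5 differed by −4.35 (SE 1.14, adjusted p = 0.152), Slfn2 by −2.29 (SE 0.70, adjusted p = 0.199) and Slfn8 by −2.01 (SE 0.41, adjusted p = 0.0905). Between the CKO arrays the differences were −3.39 for Slfn5, −1.81 for Slfn2 and −1.92 for Slfn8. Slfn5 was not well above background on the TCRβ-negative array. Its difference between the CKO arrays was −2.61 by the detection bound, and its fitted difference was −0.99 by normexp. Against DP cells, limma called 0 members and 0% of all genes, with 0 members and 1.64% of all genes at an unadjusted p below 0.05. There the CKO arrays differed by −0.56 for Slfn2, 0.41 for Slfn8 and 0.82 for Slfn9.

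**Figure D3:**
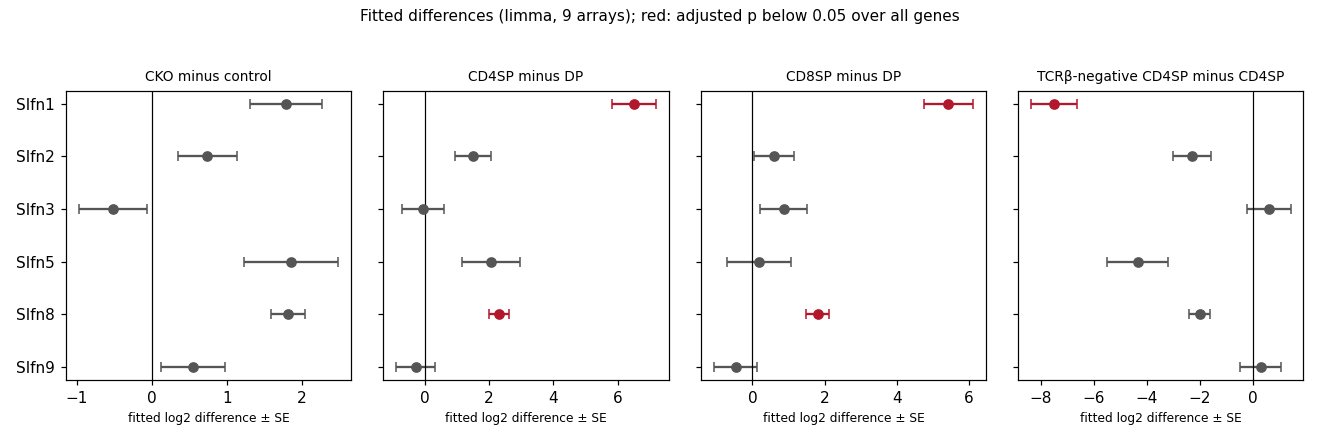
Fitted log2 difference of each member with its SE (horizontal axes, each panel on its own scale) for CKO minus control, CD4SP minus DP, CD8SP minus DP and TCRβ-negative CD4SP minus CD4SP, from limma over 9 arrays, with red for an adjusted p below 0.05. Slfn1 is red in the 3 population contrasts (6.50, 5.43 and −7.50) and Slfn8 in 2 of them, and no member is red for the genotype.

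Genotype was the comparison the study was built on. The fit of CKO minus control called 0 of 6 members, against 0.281% of all genes called (57 of 20301), and 3 members were at an unadjusted p below 0.05, against 10.9% of all genes. Of the 6, 5 had a positive difference, and their median was 1.26 against −0.04 over all genes. That median was 0.58 by normexp, 0.74 with detection on at least 5 arrays, 0.45 on slide 1 alone and 0.75 without the OT-I pair. Slfn8 was closest to the threshold, with 1.81 (SE 0.23, 3.51-fold, adjusted p = 0.0646). Over 15 alternatives its adjusted p lay between 0.0448 and 0.233, and it was below 0.05 in 3 of them, by normexp, without a filter on dim genes and with detection on at least 5 arrays. It was higher in CKO in 4 of 4 pairs, while its second probe had 0.87 (SE 0.46, adjusted p = 0.545 over all probes). Slfn1 had 1.79 (SE 0.48, adjusted p = 0.296) and Slfn5 1.86 (SE 0.63, adjusted p = 0.383). These were 0.96 and 0.26 by normexp and 1.08 and 0.49 on slide 1 alone, and both genes were not well above background on either DP array, Slfn5 being detected on 1 of the 4 control arrays. Slfn2 had 0.74 (SE 0.39, adjusted p = 0.532), Slfn9 0.55 (SE 0.43, adjusted p = 0.634) and Slfn3 −0.52 (SE 0.45, adjusted p = 0.668).

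Pair by pair, with 1 array on each side and no test, the members spread most in OT-I CD8SP cells. In that pair, 5 of the 6 members detected were more than 2-fold higher in CKO, against 10.1% of all genes, and 1 was more than 2-fold lower, against 15.6%. The higher ones were Slfn1 (11.7-fold), Slfn5 (10.1-fold with the control set at the detection bound), Slfn2 (4.17-fold), Slfn8 (3.03-fold) and Slfn9 (2.60-fold). The lower one was Slfn3 (3.58-fold lower). By normexp 3 members, Slfn1, Slfn2 and Slfn8, were past 2-fold higher and Slfn3 was past 2-fold lower in this pair. The share of all genes past 2-fold by normexp is not given here, and the shares above are not for that setting. The log2 difference of Slfn1 was 3.55 in the main setting and 1.82 by normexp. In CD8SP cells, 3 of 6 were more than 2-fold higher in CKO, against 9.32% of all genes, and 1 lower, against 10.1%. These were Slfn8 (5.40-fold), Slfn5 (4.07-fold with the control set at the detection bound) and Slfn1 (2.73-fold), with Slfn3 2.09-fold lower.

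In CD4SP cells, 2 of 6 were more than 2-fold higher in CKO, Slfn8 (3.11-fold) and Slfn9 (2.10-fold), against 6.65% of all genes, and 0 were lower, against 5.54%. In DP cells, 4 members were detected on at least 1 of the arrays. Slfn8 was 2.98-fold higher in CKO, against 4.85% of all genes past 2-fold higher, and Slfn9 2.08-fold lower, against 7.59% lower. These counts rest on the brighter probes. The second Slfn8 probe differed by −0.14 in DP and −0.01 in CD4SP cells, and the second Slfn9 probe by −0.67 and 0.31. With the mean of all probes of a gene, 0 members were past 2-fold in either pair. The share of all genes past 2-fold was itself greater in the CD8SP and OT-I pairs than in the other 2. By the normexp background correction the Slfn5 difference was 0.08 in CD8SP and 0.86 in OT-I CD8SP cells, so its fold near background depends on that correction.

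**Figure D4:**
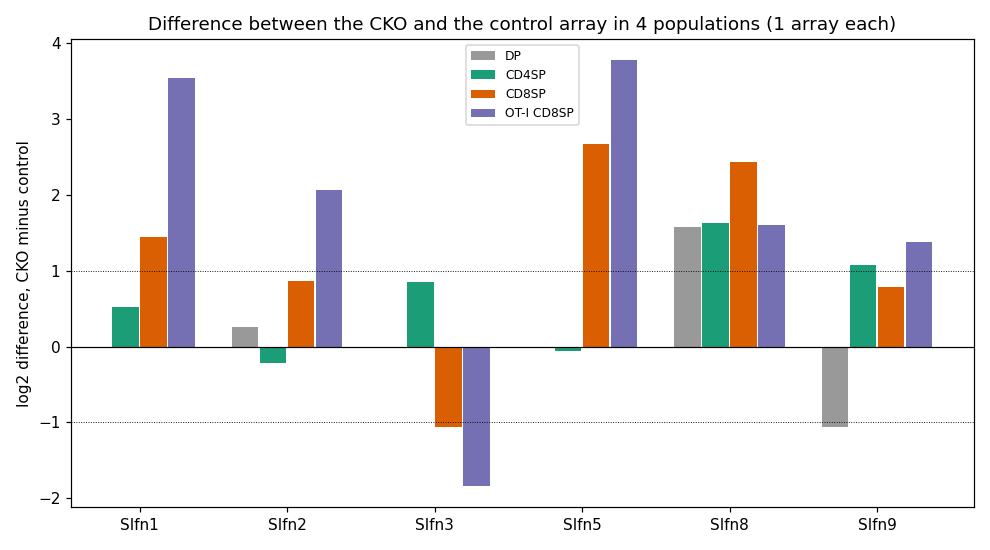
Difference in log2 signal between the CKO and the control array (vertical axis) for the members detected in each of 4 populations, 1 array per group, with dotted lines at 2-fold. By its brighter probe Slfn8 is above the upper line in all 4 pairs, and Slfn3 is below the lower line in CD8SP (−1.07) and OT-I CD8SP cells (−1.84). Slfn1 (3.55) and Slfn5 are highest in OT-I CD8SP cells. Slfn5 was not well above background on the control array there, and its difference is 3.34 with that array set at the detection bound.

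Whether the genotype difference was another in the CD8SP and OT-I pairs than in the DP and CD4SP pairs was tested as 1 interaction term in limma, with 2 residual degrees of freedom. Because the CD8SP pair crosses slides and the OT-I pair came from mice of 14 weeks, slide and age cannot be told apart from cell type here. It called 0 of 6 members and 0% of all genes, with 3 members at an unadjusted p below 0.05, against 15.1% of all genes. The values were 2.73 for Slfn5 (SE 0.59, adjusted p = 0.315), −1.87 for Slfn3 (SE 0.49, adjusted p = 0.315), 1.44 for Slfn2 (SE 0.52, adjusted p = 0.323) and 1.42 for Slfn1 (SE 0.82, adjusted p = 0.443). The Slfn5 value was 0.43 by normexp, and Slfn5 was not well above background on 4 of the 8 arrays of the pairs. Slfn9 had 1.08 (SE 0.78) and Slfn8 0.41 (SE 0.42). The second Slfn8 probe had 1.88 (SE 0.53, adjusted p = 0.328 over all probes).

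OT-I CD8SP cells were compared with CD8SP cells over both genotypes, a contrast in which OT-I, age and, for the controls, slide cannot be told apart. Of the 6 members, limma called 0, against 0.236% of all genes, and 0 were at an unadjusted p below 0.05, against 6.95% of all genes. Slfn1 had −1.52 (SE 0.68, adjusted p = 0.774) and Slfn8 −0.68 (SE 0.32, adjusted p = 0.806). Between the control arrays Slfn1 differed by −2.57 and Slfn2 by −1.01, and between the CKO arrays by −0.47 and 0.19.

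Markers of stage also differed between CKO and control arrays, though not in the same way in each pair. The summed signal of 9 DP-stage genes, relative to the 75th percentile, was 89.3 in CKO and 650.7 in control OT-I CD8SP cells and 521 in CKO and 946 in control CD8SP cells, against 2135 in CKO and 1875 in control DP cells. The sum of 7 genes of mature single positive cells was 974 in CKO and 313 in control OT-I CD8SP cells, and 1044 in CKO and 391 in control CD8SP cells. The sum of 8 proliferation genes was 52.9 in CKO and 472 in control OT-I CD8SP cells, and 174 in CKO and 431 in control CD8SP cells. In TCRβ-negative CD4SP cells the DP-stage sum was 2139, the mature sum 66.3 and the proliferation sum 338. In CD4SP cells the DP-stage sum was 150.3 in CKO and 84.8 in control cells and the mature sum 835 in CKO and 721 in control cells, and in DP cells the mature sum was 86.9 in CKO and 46.7 in control cells. The proliferation sum was 52.5 in CKO and 50.3 in control CD4SP cells, and 210 in CKO and 248 in control DP cells. The part of stage and proliferation in the Schlafen differences was not tested. A list of 6 NK cell genes summed to 82.1 in CKO and 791 in control OT-I CD8SP cells, and to 197 and 233 in CD8SP cells. The direction was the other in DP cells (210 in CKO, 45.3 in control) and CD4SP cells (41.9 and 16.2), and TCRβ-negative cells had 303. On each OT-I array 3 of the 6 were well above background, with list medians of −2.73 in CKO and −2.54 in control, so few genes make the sum. The part of NK cells was also not tested. Of other cell types, the summed signal ranged over the arrays from 3.91 to 15.7 for 7 B cell genes, from 4.77 to 19.4 for 6 erythroid genes and from 0.564 to 3.08 for 8 stromal genes.

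The 15 genes of macrophages, monocytes and dendritic cells summed to 407 to 643, most of it the 1 gene Siglech, a receptor of plasmacytoid dendritic cells. Without Siglech, the sum was 107.2 in CKO and 77.5 in control OT-I CD8SP cells, 231 in CKO and 126 in control CD8SP cells, 127 in CKO and 158 in control CD4SP cells, 54.1 in CKO and 69.5 in control DP cells, and 46.1 in TCRβ-negative CD4SP cells of the CKO. The sum was thus higher in all single positive arrays with TCRβ than in DP and TCRβ-negative cells, as Slfn1 was, but single genes did not all follow. Itgam, a bright gene of this list, was 5.54 in control DP, 4.89 in control CD8SP and 5.12 in control OT-I CD8SP cells. In the CKO it was 4.87 in DP, 5.58 in CD8SP and 5.84 in OT-I CD8SP cells. Of the 14 genes tested, 13 were positive in CD4SP minus DP, with 1 called, and the median was 1.67, while in CD8SP minus DP 4 rose and 2 fell with a median of 0.19. The share of all genes called was 3.09% in CD4SP minus DP and 3.48% in CD8SP minus DP. In TCRβ-negative minus CD4SP cells 3 fell, against 1.4% of all genes called, and the median was −2.30. For the genotype limma called 0, with 1 at an unadjusted p below 0.05 and a median of 0.20. Among all genes, 0.281% were called for the genotype and 10.9% had an unadjusted p below 0.05. Ctss, a protease of antigen-presenting cells, had a level of 5.64 in CKO and 5.72 in control CD4SP cells, 6.23 in CKO and 4.85 in control CD8SP cells, and 0.93 in CKO and 0.67 in control DP cells. Other genes of the list went the other way in CD8SP cells. C1qa was −4.37 in CKO and −4.81 in control CD8SP cells, and −0.62 and −2.20 in DP cells. C1qc was −4.64 and −4.55 in CD8SP cells, and −0.13 and −0.70 in DP cells. Neither C1qa nor C1qc was well above background on the CD8SP arrays. Cd14, a monocyte marker, was not well above background on any array. The 7 granulocyte genes summed to 229 to 338, most of it Csf3r, and to between 4.54 and 15.1 without it, the highest being control DP cells, and for the genotype limma called 0 of the 6 tested, 0 at an unadjusted p below 0.05, with a median of −0.57. S100a8, a calcium-binding protein of neutrophils, was at −4.17, not well above background, in CKO and at 1.33 in control DP cells. The part of these cell types in the Schlafen differences was not tested.

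Of 30 genes tied to T cell quiescence, 28 were tested. In CD8SP minus DP, 4 rose and 0 fell by the adjusted p, with a median of −0.17 against 0.03 over all genes, and in CD4SP minus DP 5 rose and 0 fell. The 4 were S1pr1, Klf2, Ccr7 and Il7r, which were called in CD4SP minus DP too. They are also on the list of mature single positive genes, so these calls are not separate from that list. The share of all genes called was 3.48% in CD8SP minus DP and 3.09% in CD4SP minus DP. S1pr1, the receptor for leaving the thymus, rose by 5.97 (SE 0.49, adjusted p = 0.00804) in CD8SP minus DP. Ccr7, a chemokine receptor of mature T cells, rose by 4.65 (SE 0.48, adjusted p = 0.0118), and Il7r, the receptor of a survival cytokine, by 4.38 (SE 0.75, adjusted p = 0.0413). The most negative values were −1.75 for Foxo3 (adjusted p = 0.111), −1.57 for Foxo4 (adjusted p = 0.233) and −1.39 for Klf13 (adjusted p = 0.097). Foxo3 and Foxo4 were not well above background on either CD8SP array, and by the detection bound their values were −1.43 and −0.84. For the genotype, limma called 0 of the 28, against 0.281% of all genes. Of the 28, 6 were at an unadjusted p below 0.05, against 10.9% of all genes, with a median of 0.23 against −0.04. The extremes were 1.93 for Il7r (adjusted p = 0.3), 1.25 for Vsir (adjusted p = 0.181) and 1.098 for Klf2 (adjusted p = 0.273), and −0.67 for Foxo4 (adjusted p = 0.591), −0.38 for Klf10 (adjusted p = 0.551) and −0.34 for Sesn1 (adjusted p = 0.527). Foxo4 was well above background on the 2 DP arrays only, where it was the higher in CKO (−2.45 against −2.86 in control), so its negative value rests on undetected arrays.

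Of 45 genes of the interferon response, 43 were on the array and tested. In CD8SP minus DP, 11 rose and 1 fell, with a median of 1.75 against 0.03 over all genes, and in CD4SP minus DP 15 rose and 0 fell, with a median of 1.99. Of all genes, 3.48% were called in CD8SP minus DP and 3.09% in CD4SP minus DP. Ifit3, an interferon-induced antiviral protein, rose by 5.72 (SE 0.43, adjusted p = 0.00804) in CD8SP minus DP, and Ifit1 of the same family by 5.34 (SE 0.81, adjusted p = 0.0292). Ifit1 was not well above background on either DP array, and it was 17.4-fold higher with those arrays set at the detection bound. Ifit3 was well above background on 1 of the 2. Ifi27l2a had 4.73 (SE 1.01, adjusted p = 0.0715). Socs1, an inhibitor of cytokine signalling, fell by 1.93 (SE 0.25, adjusted p = 0.0196), while Ifngr1 had −0.79 (adjusted p = 0.291). For the genotype, limma called 0 of 43, against 0.281% of all genes, and 14 were at an unadjusted p below 0.05, against 10.9% of all genes. Of the 43, 38 were positive, with a median of 0.50 against −0.04 over all genes. Oasl1, a relative of the antiviral oligoadenylate synthetases, had 1.91 (SE 0.26, adjusted p = 0.0845), Trim30a 1.27 (adjusted p = 0.305) and Irf7 1.24 (adjusted p = 0.237), and the most negative were Ifi44 (−0.69, adjusted p = 0.635), Psmb8 (−0.20, adjusted p = 0.751) and Ifit2 (−0.15, adjusted p = 0.856).

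The genes whose levels ran most alike over the 9 arrays were sought among 1705 named genes detected on all arrays with a range of at least 2 log2 units. The points share arrays, populations and genotype, so the correlation is a description. For Slfn8 they were Mndal (Pearson r = 0.98), Litaf (0.96) and Oasl1 (0.94), and Oasl1 is also on the interferon list. For Slfn2 they were Gramd1b (0.98), Parp3 (0.98) and Trim12c (0.98). For Slfn3 they were Pxmp2 (0.96), Nelfe (0.93) and Pold2 (0.92), and for Slfn9, whose range was 1.55, Zyg11b (0.88), Zfp946 (0.86) and Ttc14 (0.86).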

How the data were processed

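RNA of sorted mouse thymocytes was measured on 9 one-colour arrays, 1 per group. Per the file headers, the deposited signal of each spot is an intensity made by Agilent Feature Extraction 10.7.1.1 on array design 028005, background-subtracted and not scaled between arrays. The labels describe a biotin protocol, and the arrays are taken here as the scanner files describe them. Repeated spots were averaged per probe, 144 of 55681 probes carried outlier marks and were dropped, and log2 signal was taken relative to the array's 75th percentile. RefSeq accessions (GRCm38.p6 table) named 26715 probes, and a gene was its brightest probe by the mean over arrays.

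Genes well above background on at least 2 arrays entered an additive limma fit (version 3.58.1, R 4.3.3) with population and genotype as terms, with Benjamini-Hochberg adjustment over 20301 genes. With 1 array per group, the number of arrays limits the precision, and p-values measure how the genotype difference varies over populations. The fit was also run on simulated data with additive genotype effects and normal noise. Such data do not show how it does where genotype differences vary between populations or values lie near background. The members and the lists (DP stage, mature single positive, proliferation, quiescence, interferon and other cell types) were chosen with earlier results of these data known.

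2 settings were revised after members' results had been seen. A first fit kept each probe without a symbol as its own feature (22962 tested). Such probes were then joined by the systematic name of the files (20301 tested), which moved 1 member call, Slfn8 in CD8SP minus DP. A floor for dim genes in the pair counts was also tried and not kept, since the counts had been set on plain differences. Both stand among the alternatives.

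All members, each of their probes, label checks and, of the quiescence and interferon lists, up to 3 genes of most positive and 3 of most negative difference were named, except 1 gene that is not reported here. Alternatives changed the background correction, scaling, probe rule, filter, slide and the pairs included. Promoters were searched with Python 3.11.15 and Biopython 1.88.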

Additional observations from a re-analysis of the deposited data

Results flagged for a closer look

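Slfn3 and Slfn9 had CKO minus control differences of over 1.5-fold in opposite directions in different populations, each from 1 array per group. For Slfn3 the log2 difference was 0.85 in CD4SP cells, −1.07 in CD8SP cells and −1.84 in OT-I CD8SP cells. The interaction of genotype with CD8SP and OT-I against DP and CD4SP cells was −1.87 in limma (SE 0.49, adjusted p = 0.315), so it did not pass. For Slfn9 the log2 difference was −1.06 in DP cells, 1.07 in CD4SP cells, 0.79 in CD8SP cells and 1.38 in OT-I CD8SP cells. The DP pair against the other 3 was not tested, and the second Slfn9 probe had the same directions (−0.67 in DP cells). No group had enough arrays to look for outlying samples.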

How the results depend on the processing

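No paired analysis was possible because no group has a second array that a replicate number could pair; CKO and control were set against each other within 4 populations by the population term. With normexp, 1 member (Slfn8) was called for the genotype, among 52 of all 20301 genes. The members' median genotype difference was then 0.58, and 1 member each passed 2-fold in the DP and CD4SP pairs. Slfn8 was also the 1 member called for the genotype with no filter on dim genes (96 of 37079 genes called). It was so too with detection on at least 5 arrays (54 of 18033 genes called), where the median was 0.74 (fewer members enter). The mean of all probes left 0 members past 2-fold in the DP and CD4SP pairs. The shares of all genes past 2-fold by normexp and by the mean of probes are not given here. Of the 2 members called in CD8SP minus DP, 1 was called with the percentile of detected probes, the mean of probes, probes on their own, no filter, slide 1 only, and without the CD4SP or the OT-I pair; in each of these Slfn8 dropped out, with adjusted p between 0.0511 and 0.135. The slide term left 0, and it called 0 genes in all. The settings that kept 1 member, slide 1 apart, called between 471 and 877 genes in this contrast, against 707 in the main fit. In an alternative added after seeing the data, keeping each unnamed probe on its own as in the first fit, 1 member was also called, with Slfn8 at 0.052. Slfn1 in TCRβ-negative minus ordinary CD4SP cells, the 1 call there, was lost (0 called) with the percentile of detected probes, quantile normalization, the slide term, and without the DP or the CD8SP pair. The fit on slide 1 alone had 1 residual degree of freedom. On slide 1 alone, 4 members were called in CD4SP minus DP, 1 in CD8SP minus CD4SP and 3 in TCRβ-negative minus CD4SP. That fit called 1999, 1026 and 1374 of all 20301 genes in these contrasts, in the same order. The main fit called 627, 79 and 285 of them, so the rise in calls was not particular to the members. The members' median genotype difference was 0.45 on slide 1 alone and 0.75 without the OT-I pair. Setting dim values at the detection bound, also added after seeing the data, kept the members' counts past 2-fold at 2, 2, 4 and 6 in the DP, CD4SP, CD8SP and OT-I pairs, and gave 5.98% in place of 7.59% of all genes lower in the DP pair. Signs turned, with no call on either side, for Slfn3 in CD4SP minus DP (0.043 with normexp, 0.010 with the percentile of detected probes), Slfn9 in TCRβ-negative minus DP (−0.13 with that percentile, −0.034 with quantile normalization), Slfn5 in OT-I minus CD8SP (−0.024 with normexp, −0.39 with the slide term), Slfn3 (0.031) and Slfn9 (−0.023) in OT-I minus CD8SP with the slide term, Slfn5 in CD8SP minus DP (−0.36 with the slide term, −0.91 on slide 1), the Slfn3 genotype difference on slide 1 (0.42), and the Slfn8 interaction without the CD8SP pair (−0.008). The causes of these changes were not tested. In CD4SP minus DP, Slfn1 and Slfn8 were each called in 13 of 13 alternatives, with adjusted p between 0.00139 and 0.0321 for Slfn1 and between 0.00667 and 0.0459 for Slfn8, while Slfn8 in CD8SP minus DP was called in 4 of 13. Values near background, as for Slfn1 in DP cells and Slfn5 in control CD8SP cells, are limited by the signal over background.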
